A study of Mus musculus with 6 samples.

Results

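Genes of pericytes and vascular smooth muscle were examined in the frontal cortex of GFAP-IL6 and wild-type (WT) mice. The group held 10 genes, taken by symbol from a count table of 33000 genes, and each symbol matched 1 row. Its members were Pdgfb, Pdgfrb, Rgs5, Notch3, Anpep, Vtn, Kcnj8, Abcc9, Acta2 and Tagln. Libraries were made with the TruSeq mRNA protocol, which sequences fragments from the full length of transcripts, against which the study compared its 3’Pool-seq protocol. There were 3 homozygous GFAP-IL6 mice and 3 WT mice, all aged 3 months and of the C57BL/6 strain by their labels. The labels number the replicates, and that each is a separate mouse comes from the text of the study. The GFAP-IL6 mouse carries a transgene for the cytokine IL6 under the promoter of Gfap, a gene of astrocytes, so mural cells are not the cells that the promoter is meant to drive.

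Mural cells is the joint name of pericytes, which sit on capillaries, and of the smooth muscle cells that wrap arterioles. Endothelial cells release PDGF-B, the product of Pdgfb, and pericytes are recruited to and kept on the vessel wall through its receptor PDGFRβ. In brain, pericytes help to maintain the blood-brain barrier, and the contractile smooth muscle cells set the width of arterioles. Pdgfb is thus the gene of the ligand and not a marker of mural cells, placed here because its protein acts on pericytes. Which cells of the cortex gave its RNA was not measured.

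Library totals ranged from 7559524 to 16877001 counts, and each GFAP-IL6 library was shallower than each WT library. All 10 genes passed the filter on low counts, with between 27 counts (Kcnj8 in GFAP-IL6 replicate 2) and 1952 counts (Rgs5 in WT replicate 2). Gfap rose from 94.5 ± 24.8 to 678 ± 179 CPM (n = 3, SD), where CPM are counts scaled to a common library total after TMM normalization. Il6, the gene that the transgene carries, had 0, 2 and 0 counts in WT replicates 1, 2 and 3, and 12, 10 and 24 counts in GFAP-IL6 replicates 1, 2 and 3, so the libraries went with their labels. The tissue label was checked against neuronal genes, and Slc17a7, the transporter of cortical excitatory neurons, was at 1217 ± 129 CPM in WT (n = 3, SD) and 1215 ± 69.4 CPM in GFAP-IL6 mice (n = 3, SD). Some libraries stood apart in ways that touch the mural genes. Choroid plexus genes (Ttr, Folr1, Kl, Clic6 and Kcnj13) summed to 610 CPM in WT replicate 3 and to between 4.18 and 59.2 CPM in the other libraries. Genes rich in G and C bases were low in WT replicate 2, where the tenth of genes with the highest GC content had a median deviation of -0.14 on the log2 scale from the mean of all libraries. This median was -0.05 in WT replicate 3 and between 0.03 and 0.07 in the other libraries, over 14967 genes. Over the same genes, the Spearman correlation of the deviations with gene length was 0.03, -0.29 and -0.05 in WT replicates 1, 2 and 3. It was 0.24, 0.11 and 0.12 in GFAP-IL6 replicates 1, 2 and 3. The trend with gene length was thus higher in each GFAP-IL6 library than in each WT library, and cannot be told apart from the group.

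Of the 10 genes, 2 were higher in GFAP-IL6 at an adjusted p under 0.05 and 0 were lower, by edgeR’s quasi-likelihood test with Benjamini-Hochberg adjustment over all 15341 genes tested. The higher genes were Rgs5 and Notch3. Among all genes tested, 2.86% were called in either direction, 2.65% as higher and 0.209% as lower. No member had an absolute log2 fold change over 1, the size that the study also asked of its differentially expressed genes and that 1.38% of all genes passed together with the adjusted p. At an unadjusted p under 0.05, 4 members were higher and 0 lower (Rgs5, Notch3, Abcc9 and Pdgfrb), where 20.5% of all genes passed, 11.1% as higher and 9.37% as lower. The GFAP-IL6 libraries lay wholly above the WT libraries in 3 members (Rgs5, Notch3 and Abcc9) and below them in 0, against 13.8% and 12.7% of all genes (26.5% in either direction). The median log2 fold change of the members was 0.25, and 9 of the 10 had a value above 0. The median over all genes tested was -0.0038. In tissue RNA, a change in the number of cells of a type and a change in RNA per cell cannot be told apart.

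**Figure D1:**
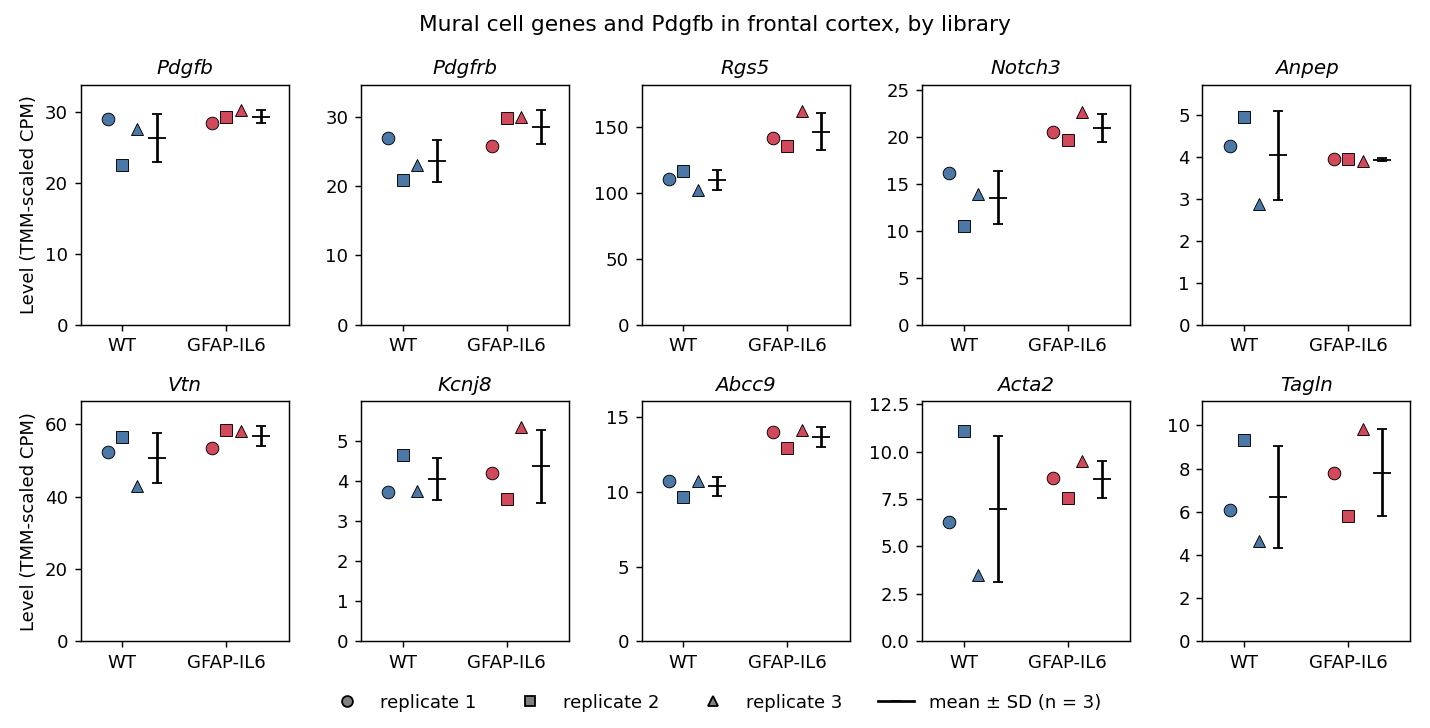
Level of each gene (vertical axis, TMM-scaled CPM, starting at 0) in the 3 WT libraries (blue) and the 3 GFAP-IL6 libraries (red), with symbols for the replicate number and the mean ± SD (n = 3) beside them. The GFAP-IL6 points of Rgs5, Notch3 and Abcc9 lie above all WT points, and the points of the other genes overlap, with the widest WT spread relative to the mean in Acta2, from 3.52 to 11.1 CPM.

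Per unit of length, the most abundant members were Vtn and Rgs5. TPM are counts divided by gene length and scaled to a common total in each library, without TMM. For every member the log2 ratio of the GFAP-IL6 mean to the WT mean was higher in TPM than in CPM. In WT the TPM was 80.5 ± 10.3 for Vtn, 66.9 ± 3.99 for Rgs5 and 25.1 ± 3.91 for Pdgfb (n = 3, SD). Vtn was above Rgs5 in each WT library, though the highest Rgs5 value (69.4 TPM) exceeded the lowest Vtn value (68.7 TPM). In GFAP-IL6 their TPM was 94.8 ± 3.76 and 93.7 ± 8.93 (n = 3, SD), and the ranges of the libraries overlapped. Pdgfrb, Tagln and Acta2 followed in WT at 11.99 ± 1.90, 11.6 ± 3.87 and 10.8 ± 5.68 TPM (n = 3, SD), and did not differ from each other beyond their spread. The lowest were Kcnj8 at 5.13 ± 0.515, Notch3 at 4.70 ± 1.11, Abcc9 at 3.82 ± 0.326 and Anpep at 2.94 ± 0.734 TPM (n = 3, SD), and the WT ranges of neighbours in this order overlapped.

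Promoter windows from RefSeq (GRCm38.p6) were used for 7 of the 10 genes, and not for Pdgfb, Pdgfrb and Tagln. Those of 4 are shown here, from 225 bases before to 20 bases after the annotated start, on the strand of the gene. They are those of the called genes Rgs5 (chr1:169655276-169655520, plus strand) and Notch3 (chr17:32166871-32167115, minus strand), and of the partner genes Abcc9 (chr6:142702255-142702499, minus strand) and Kcnj8 (chr6:142571595-142571839, minus strand), which lie side by side. Capitals mark matches to TTCNNNGAA, the palindromic core bound by STAT factors, through which IL6 signals, or to TGGGAA on either strand, the core bound by RBPJ, through which Notch receptors signal.
Rgs5: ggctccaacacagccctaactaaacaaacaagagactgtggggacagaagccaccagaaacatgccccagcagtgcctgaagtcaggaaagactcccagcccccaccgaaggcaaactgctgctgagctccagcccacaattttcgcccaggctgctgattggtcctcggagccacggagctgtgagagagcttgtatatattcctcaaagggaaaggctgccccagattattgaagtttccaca
Notch3: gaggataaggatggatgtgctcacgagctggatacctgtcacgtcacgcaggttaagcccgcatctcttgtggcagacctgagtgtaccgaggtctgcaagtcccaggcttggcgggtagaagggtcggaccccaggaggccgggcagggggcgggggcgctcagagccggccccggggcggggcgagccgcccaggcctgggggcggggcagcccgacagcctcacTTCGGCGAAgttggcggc
Abcc9: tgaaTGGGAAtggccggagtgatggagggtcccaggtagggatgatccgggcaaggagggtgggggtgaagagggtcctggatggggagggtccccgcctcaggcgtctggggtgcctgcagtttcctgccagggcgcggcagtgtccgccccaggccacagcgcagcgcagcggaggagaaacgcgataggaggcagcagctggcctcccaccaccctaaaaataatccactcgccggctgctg
Kcnj8: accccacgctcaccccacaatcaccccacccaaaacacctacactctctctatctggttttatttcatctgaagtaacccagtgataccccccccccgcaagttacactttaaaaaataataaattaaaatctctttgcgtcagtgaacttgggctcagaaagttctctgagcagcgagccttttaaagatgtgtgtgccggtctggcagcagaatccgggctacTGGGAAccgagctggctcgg
The Notch3 window held 1 match to TTCNNNGAA, as did 6.79% of all 32851 promoter windows of 245 bases, and the other windows shown held 0. The Abcc9 and Kcnj8 windows each held 1 match to TGGGAA, a motif of 21.2% of all windows, and the Rgs5 and Notch3 windows held 0. Over the 7 members whose windows were used, 1 held TTCNNNGAA and 4 held TGGGAA, with Vtn and Acta2 as the others. The motifs do not overlap each other in these windows. The GC content of the windows was 53.9% for Rgs5, 69.4% for Notch3, 66.1% for Abcc9 and 49.0% for Kcnj8. A match describes the letters only, and binding was not measured.

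Rgs5 encodes a regulator of G protein signalling that speeds the switching-off of G protein alpha subunits, and it is among the most used markers of brain pericytes. It lies on chromosome 1, 169655501 to 169695813 (GRCm38), plus strand. Its level was 110.5, 116 and 102 CPM in WT replicates 1, 2 and 3, and 141, 135 and 162 CPM in GFAP-IL6 replicates 1, 2 and 3. Each GFAP-IL6 library was above each WT library, with GFAP-IL6 replicate 3 the highest. The mean rose from 109.6 ± 7.35 to 146 ± 14.1 CPM (n = 3, SD), a fold change of 1.33 (95% interval 1.16 to 1.53). The log2 fold change was 0.42 ± 0.09 (SE; edgeR adjusted p 0.0289). Correction of each library for GC content and gene length left it at 0.45 ± 0.08 (SE; edgeR adjusted p 0.0102).

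Notch3 encodes a Notch receptor of mural cells, which is required for the maturation of arterial smooth muscle and is mutated in a hereditary small-vessel disease of the human brain. It lies on chromosome 17, 32120820 to 32166852, minus strand. Its level was 16.2, 10.6 and 13.9 CPM in WT replicates 1, 2 and 3, and 20.6, 19.7 and 22.7 CPM in GFAP-IL6 replicates 1, 2 and 3. The groups did not overlap, and the lowest library was WT replicate 2. The mean rose from 13.6 ± 2.84 to 21.0 ± 1.53 CPM (n = 3, SD), a fold change of 1.56 (95% interval 1.25 to 1.95). The log2 fold change was 0.64 ± 0.15 (SE; edgeR adjusted p 0.035). The transcript of Notch3 holds 59.6% G and C bases, and with the correction for GC content and gene length its log2 fold change was 0.42 ± 0.11 (SE; edgeR adjusted p 0.0498). Of its exon bases, 6.03% lie in exons of other genes, with the largest overlap from Gm17276 on the opposite strand. Whether the counting used strand was not stated.

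The calls of Rgs5 and Notch3 were not kept in every fit that left out 1 library. When WT replicate 3 or any GFAP-IL6 library was left out, neither gene was past an adjusted p of 0.05, while the log2 fold change was 0.34 or more for Rgs5 and 0.59 or more for Notch3. In these fits 186 to 332 of all genes were called as higher, against 407 with all libraries. Without GFAP-IL6 replicate 2 both log2 fold changes were larger than with all libraries (0.47 for Rgs5 and 0.68 for Notch3). Across the 6 fits that each left out 1 library, the adjusted p by edgeR was between 0.00645 and 0.18 for Rgs5 and between 0.0101 and 0.22 for Notch3, and 2 of the 6 fits called each gene.

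The subunits of the vascular ATP-sensitive potassium channel are encoded side by side on chromosome 6, with 16247 bases between Kcnj8 (142564837 to 142571614) and Abcc9 (142587862 to 142702315). Kcnj8 encodes the pore and Abcc9 the sulfonylurea receptor that regulates it, and in brain both mark pericytes. Abcc9 was at 10.7, 9.66 and 10.7 CPM in WT replicates 1, 2 and 3, and at 13.98, 12.9 and 14.2 CPM in GFAP-IL6 replicates 1, 2 and 3. Its groups did not overlap, and its log2 fold change was 0.41 ± 0.12 (SE, 95% interval 0.14 to 0.67), but the adjusted p was 0.105 by edgeR. Abcc9 was not past an adjusted p of 0.05 in any of the 15 alternative fits, where the value ranged from 0.0747 to 0.352. Kcnj8 was at 3.75, 4.65 and 3.77 CPM in WT replicates 1, 2 and 3, and at 4.21, 3.57 and 5.36 CPM in GFAP-IL6 replicates 1, 2 and 3. The groups of Kcnj8 overlapped, and the highest and the lowest library were both GFAP-IL6 libraries. Its log2 fold change was 0.11 ± 0.21 (SE, 95% interval -0.35 to 0.57; edgeR adjusted p 0.803). The log2 ratio of Abcc9 to Kcnj8 in TPM was -0.42 ± 0.27 in WT libraries and -0.12 ± 0.24 in those of GFAP-IL6 (n = 3, SD), and the exact two-sided permutation p was 0.3, the smallest possible for 3 against 3 libraries being 0.1. The relatives Kcnj11 and Abcc8, which form the channel of neurons and of pancreatic beta cells, had log2 fold changes of -0.04 and 0.27, and neither was called.

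Pdgfb and its receptor gene Pdgfrb were both within the overlap of the groups. Pdgfb was at 29.0, 22.5 and 27.6 CPM in WT replicates 1, 2 and 3, and at 28.4, 29.3 and 30.4 CPM in GFAP-IL6 replicates 1, 2 and 3. WT replicate 2 was below the other libraries. In TPM the groups of Pdgfb did not overlap, with 28.4 in the highest WT library and 28.7 in the lowest GFAP-IL6 library. The log2 ratio of its group means was 0.16 in CPM and 0.22 in TPM, and this ratio was higher in TPM for every member. The share of all genes whose groups did not overlap was taken in CPM only. The log2 fold change of Pdgfb was 0.16 ± 0.11 (SE, 95% interval -0.08 to 0.39; edgeR adjusted p 0.424). Pdgfrb was at 26.9, 20.9 and 23.0 CPM in WT replicates 1, 2 and 3, and at 25.7, 29.8 and 29.9 CPM in GFAP-IL6 replicates 1, 2 and 3. WT replicate 1 exceeded GFAP-IL6 replicate 1, and the other GFAP-IL6 libraries were above all of WT. The log2 fold change of Pdgfrb was 0.27 ± 0.12 (SE, 95% interval 0.02 to 0.52; edgeR p 0.0342, adjusted p 0.208). The GC content of their transcripts was 60.0% for Pdgfb and 54.9% for Pdgfrb, and with the correction for GC content and gene length the log2 fold changes were 0.03 and 0.13. The log2 ratio of Pdgfb to Pdgfrb in TPM was 1.07 ± 0.09 in WT libraries and 0.96 ± 0.09 in those of GFAP-IL6 (n = 3, SD; exact two-sided permutation p = 0.3).

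Vtn encodes vitronectin, an adhesive glycoprotein that pericytes secrete into the vascular matrix. It was at 52.3, 56.6 and 43.1 CPM in WT replicates 1, 2 and 3, and at 53.5, 58.5 and 58.2 CPM in GFAP-IL6 replicates 1, 2 and 3. The groups overlapped, and WT replicate 3 was the lowest library. In TPM they did not overlap, with 87.4 in the highest WT library and 90.5 in the lowest GFAP-IL6 library. The log2 ratio of the group means of Vtn was 0.16 in CPM and 0.24 in TPM, and this ratio was higher in TPM for every member. The share of all genes without overlap was taken in CPM only. The log2 fold change of Vtn was 0.16 ± 0.10 (SE, 95% interval -0.06 to 0.39; edgeR adjusted p 0.39). With the correction for GC content and gene length it was 0.13. Anpep encodes aminopeptidase N, a surface peptidase of pericytes that myeloid cells also carry. It was at 4.27, 4.95 and 2.89 CPM in WT replicates 1, 2 and 3, and at 3.94, 3.96 and 3.91 CPM in GFAP-IL6 replicates 1, 2 and 3. All GFAP-IL6 values lay inside the WT range. Its log2 fold change was -0.03 ± 0.23 (SE, 95% interval -0.54 to 0.47; edgeR adjusted p 0.95), the only member with a value below 0. The log2 ratio of its group means in TPM was 0.04. With the correction for GC content and gene length the log2 fold change of Anpep was -0.14.

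**Figure D2:**
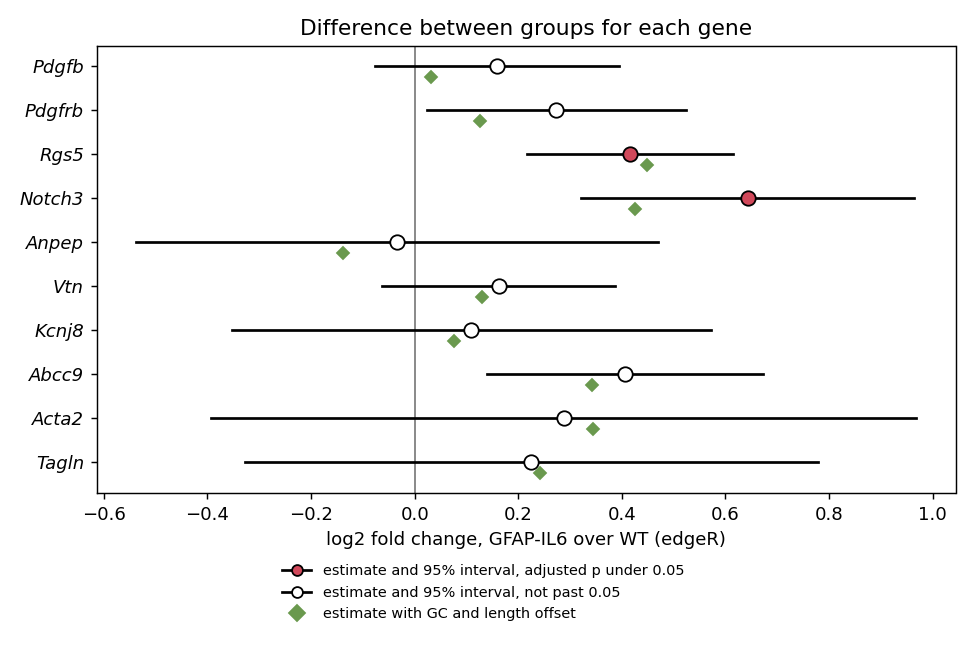
Log2 fold change of GFAP-IL6 over WT (horizontal axis) for each gene (vertical axis) by edgeR, with the 95% interval as a line, filled circles for an adjusted p under 0.05 and diamonds for the estimate after correction for GC content and gene length. Rgs5 (0.42) and Notch3 (0.64) are filled. The correction moves Notch3, Pdgfrb, Pdgfb, Anpep, Abcc9, Kcnj8 and Vtn to the left, and Rgs5, Acta2 and Tagln to the right.

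The contractile genes varied most between WT mice. Acta2 encodes smooth muscle alpha-actin and Tagln encodes transgelin, an actin-binding protein of smooth muscle. Acta2 was at 6.27, 11.1 and 3.52 CPM in WT replicates 1, 2 and 3, and at 8.61, 7.53 and 9.49 CPM in GFAP-IL6 replicates 1, 2 and 3. The WT libraries differed 3.16-fold from lowest to highest and enclosed all GFAP-IL6 values. On the log2 scale the fold change was 0.29 ± 0.31 (SE; edgeR adjusted p 0.633). The 95% interval of the fold change was 0.762 to 1.96, which holds both a fall and a rise. Tagln was at 6.10, 9.31 and 4.65 CPM in WT replicates 1, 2 and 3, and at 7.80, 5.81 and 9.82 CPM in GFAP-IL6 replicates 1, 2 and 3. The WT and GFAP-IL6 ranges overlapped over most of their length. Its log2 fold change was 0.23 ± 0.25 (SE, 95% interval -0.33 to 0.78; edgeR adjusted p 0.645). The coefficient of variation in WT was 55.1% for Acta2 and 35.7% for Tagln, against a median of 10.5% over all genes tested. The size of these values depended on which library was left out. Without WT replicate 2 the log2 fold change was 0.85 for Acta2 (adjusted p of 0.0524 by edgeR) and 0.57 for Tagln, and without WT replicate 3 it was -0.05 and 0.01. Acta2 belongs to the family of highly similar actin genes, and reads shared between them were not measured. In GENCODE release M21, 67.9% of the exon bases of Tagln lie in exons of other genes. The largest overlap is with Gm48529 on the opposite strand. The count table has no row for Gm48529, and whether the counting used strand was not stated. Reads from Gm48529 may therefore be among those counted for Tagln.

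The members deviated in different orders from mouse to mouse in WT, and 6 of the 10 shared an order in GFAP-IL6. After subtraction of the group mean, Acta2, Tagln, Anpep and Vtn were high in WT replicate 2 and low in WT replicate 3. Pdgfb, Notch3 and Pdgfrb were lowest in WT replicate 2 and highest in WT replicate 1. In GFAP-IL6, Tagln, Kcnj8, Rgs5, Acta2, Notch3 and Abcc9 were highest in replicate 3 and lowest in replicate 2. Of the 45 pairs of members, 5 had a Pearson correlation of these deviations over 0.9 across the 6 libraries, and 7 had one below -0.5. The highest was 0.96 between Pdgfb and Notch3, and the lowest was -0.70 between Pdgfb and Acta2. The value was 0.94 for Anpep with Vtn, 0.90 for Acta2 with Tagln and 0.09 for Kcnj8 with Abcc9. These are descriptions over 6 libraries in 2 groups, and the points share the depth and base composition of each library.

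**Figure D3:**
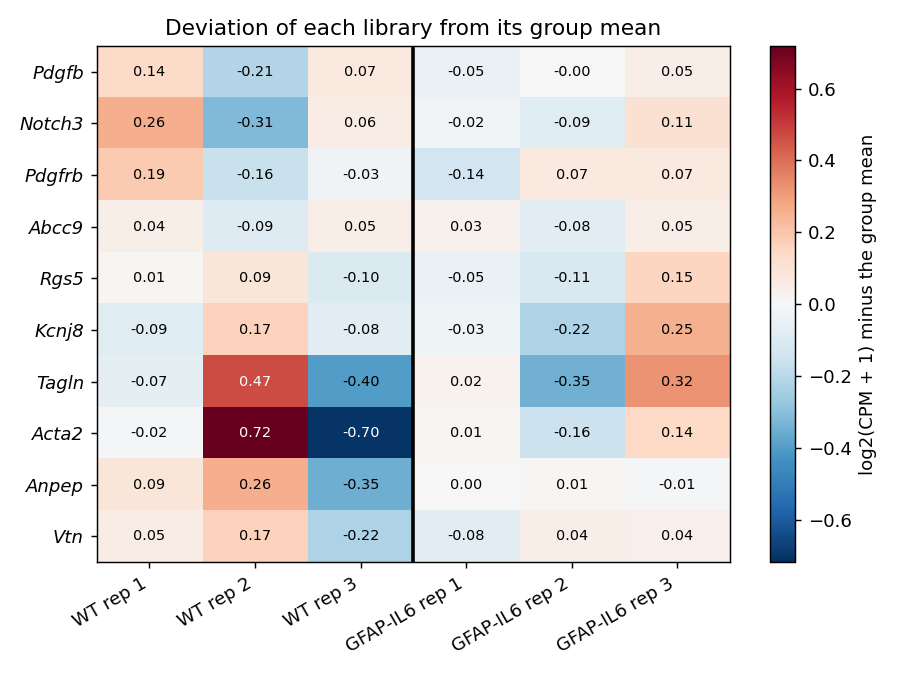
Deviation of each library (columns, WT left of the line and GFAP-IL6 right of it) from the mean of its group for each gene (rows), in log2(CPM + 1), with red above and blue below the mean. WT replicate 2 is blue for Pdgfb, Notch3 and Pdgfrb and red for Tagln (0.47) and Acta2 (0.72), and WT replicate 3 is blue for Tagln (-0.40) and Acta2 (-0.70).

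Markers of fibroblasts and meninges followed the order of the contractile genes within WT. Their 9 genes (Col1a1, Col1a2, Col3a1, Dcn, Lum, Dpt, Slc6a13, Ogn and Igf2) summed to 93.4, 115 and 74.1 CPM in WT replicates 1, 2 and 3, and to 78.9, 74.9 and 129 CPM in GFAP-IL6 replicates 1, 2 and 3. WT replicate 2 was thus the highest of WT and replicate 3 the lowest, as for Acta2 and Tagln, and GFAP-IL6 replicate 3 was the highest of its group. The part of these markers in the values of the mural genes was not tested. Between groups, 0 of the 8 tested genes of this list were called (0 at an unadjusted p under 0.05), and the median log2 fold change was 0.09. WT replicate 3, the library with the high choroid plexus genes, was the lowest of WT for Acta2, Tagln, Anpep, Vtn and Rgs5.

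Other genes of the same cells and pathways were then counted. Of 12 further pericyte genes, 1 was higher and 0 were lower at an adjusted p under 0.05, with a median log2 fold change of 0.18. At an unadjusted p under 0.05, 4 were higher and 1 lower. The called gene was Foxf2, a transcription factor of brain pericytes, which rose from 2.02 ± 0.265 to 3.98 ± 0.396 CPM (n = 3, SD), a log2 fold change of 0.97 ± 0.23 (SE; edgeR adjusted p 0.0374). With the correction for GC content and gene length its adjusted p was 0.0564. DESeq2 called 0 genes of this list, as did the fits without WT replicate 2, WT replicate 3 or any of the GFAP-IL6 libraries, and the fit without WT replicate 1 called 3. Among all genes, the fit without WT replicate 1 called 692 as higher and 369 as lower, against 407 and 32 with all libraries. The fits without a GFAP-IL6 library called 186 to 297 as higher. Cspg4, the gene of the NG2 proteoglycan of pericytes and oligodendrocyte precursors, had a log2 fold change of 0.45 and an adjusted p of 0.0651, and Ebf1, a transcription factor of mural cells, one of -0.65 and 0.197. Of 12 further contractile genes, 9 were tested and 0 were called in either direction, as were 0 at an unadjusted p under 0.05, with a median of 0.23. Without WT replicate 2, 1 was called, in a fit that called 459 of all genes as higher and 49 as lower. Myh11, the myosin heavy chain of smooth muscle, had a log2 fold change of 0.44 ± 0.20 (SE; edgeR adjusted p 0.249). Of 5 further genes of the PDGF family 0 were called (0 at an unadjusted p under 0.05), and Pdgfra, the receptor of oligodendrocyte precursors and fibroblasts, had a log2 fold change of 0.09.

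Of 12 further genes of the Notch pathway, 2 were called as higher and 0 as lower (4 and 1 at an unadjusted p under 0.05), with a median log2 fold change of 0.25. Both were receptors. Notch4, an endothelial receptor, rose from 5.21 ± 0.491 to 9.35 ± 0.942 CPM (n = 3, SD), a log2 fold change of 0.83 ± 0.16 (SE; edgeR adjusted p 0.0129). Notch1 rose from 25.3 ± 3.16 to 37.6 ± 5.61 CPM (n = 3, SD), a log2 fold change of 0.58 ± 0.12 (SE; edgeR adjusted p 0.0252). With the correction for GC content and gene length the adjusted p was 0.0671 for Notch4 and 0.0737 for Notch1. The fits without GFAP-IL6 replicate 1 or 2 each called 1 gene of the list, and the fit without GFAP-IL6 replicate 3 called 0. Among all genes, the fits without GFAP-IL6 replicates 1, 2 and 3 called 297, 279 and 186 as higher, against 407 with all libraries. The target genes Hes1, Hey1 and Hey2 had log2 fold changes of -0.29, -0.23 and -0.42, and Heyl, a target in mural cells, had 0.14, with adjusted p values between 0.18 and 0.758. Of 6 genes of vitronectin receptors and partners, 5 were tested and 1 was called as higher (2 higher and 0 lower at an unadjusted p under 0.05). This was Itgb5, an integrin subunit that pairs with that of Itgav to bind vitronectin and that microglia also express, which rose from 35.5 ± 3.79 to 64.3 ± 9.42 CPM (n = 3, SD), with an adjusted p of 0.000925 by edgeR. Itgav had a log2 fold change of -0.10 and was not called.

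Endothelial genes were compared as the neighbours of mural cells in the vessel wall. Of 10 endothelial genes, 5 were higher and 0 lower at an adjusted p under 0.05 (8 and 0 at an unadjusted p under 0.05), with a median log2 fold change of 0.58. Without GFAP-IL6 replicate 1, 3 were called, in a fit that called 297 of all genes as higher, against 407 with all libraries. Flt1, a VEGF receptor, rose from 50.8 ± 6.91 to 85.6 ± 3.27 CPM and Cldn5, the claudin of the blood-brain barrier, from 21.2 ± 3.11 to 40.7 ± 6.81 CPM (n = 3, SD). Slc2a1, the glucose transporter of brain endothelium, and Esam, an endothelial adhesion molecule, rose by 0.70 and 0.69 on the log2 scale. The list summed to 214 to 234 CPM in WT libraries and 335 to 370 CPM in GFAP-IL6 libraries. The summed level of the 9 mural genes (the members without Pdgfb) over that of the 10 endothelial genes was 1.045, 1.14 and 0.885 in WT replicates 1, 2 and 3, and 0.834, 0.748 and 0.857 in GFAP-IL6 replicates 1, 2 and 3. All GFAP-IL6 ratios were below all WT ratios, with a mean of 1.02 ± 0.129 for WT mice and 0.813 ± 0.0571 for GFAP-IL6 mice (n = 3, SD). The mural sum is weighted to Rgs5 and Vtn. The endothelial sum is weighted to the called genes Slc2a1 (mean of 73.4 CPM in WT and 119 CPM in GFAP-IL6) and Flt1. The endothelial genes Kdr and Ocln had log2 fold changes of 0.18 and 0.22 and were not past an unadjusted p of 0.05. The ratio was given as a description with no test. Of 8 genes of microglia and macrophages, 5 were higher and 0 lower (5 and 0 at an unadjusted p under 0.05), with a median of 0.72. Their summed level was 245 to 291 CPM in WT and 456 to 547 CPM in GFAP-IL6. The log2 fold change was 2.03 for Itgam, 0.87 for Csf1r, 0.81 for Tmem119 and 0.63 for Cx3cr1, which are receptors and surface proteins of these cells. The members of this list that were not called were P2ry12, a microglial receptor, at -0.27, and the macrophage receptors Mrc1 and Cd163, at 0.26 and 0.17. Of the other lists, 1 of 6 astrocyte genes was called (Gfap), and 0 of 5 neuronal, 0 of 5 oligodendrocyte and 0 of 4 tested choroid plexus genes were. At an unadjusted p under 0.05, 2 astrocyte genes were higher and 1 lower, and 2 neuronal, 0 oligodendrocyte and 3 choroid plexus genes were lower. The summed level in WT and GFAP-IL6 libraries was 6746 to 7119 and 5772 to 6684 CPM for neurons, and 4346 to 5530 and 5347 to 6481 CPM for astrocytes. For oligodendrocytes it was 3003 to 5547 and 3036 to 4734 CPM.

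**Figure D4:**
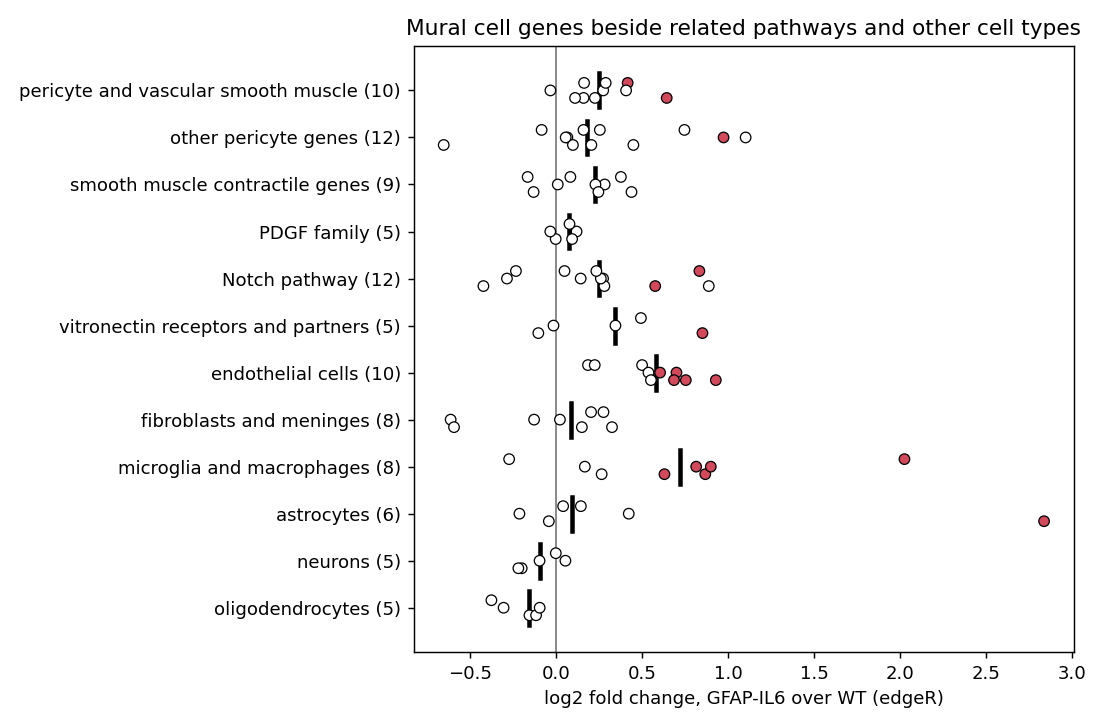
Log2 fold change of GFAP-IL6 over WT by edgeR (horizontal axis) for each tested gene of the mural group and of 11 other lists (rows, number of tested genes in brackets), with red points for an adjusted p under 0.05 and a bar at the median. The median is 0.25 for the mural group, 0.58 for endothelial cells and 0.72 for microglia and macrophages.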

How the data were processed

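The deposited values were counts of reads for each gene in each of the 6 libraries, as whole numbers that the authors had not normalized. The study’s methods name mm10 as the mouse genome, STAR (version 2.4 in the submitters’ processing notes, which give hg19 as the build) as the aligner and featureCounts with GENCODE genes for counting. Sample titles gave the groups and the replicate numbers.

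edgeR 4.0.16 in R 4.3.3 was used for the quasi-likelihood F-test, with TMM scaling, filterByExpr and Benjamini-Hochberg adjustment, and no covariate. The authors used DESeq2, which was run as an alternative (1.42.0), as were limma-voom (limma 3.58.1), DESeq2 size factors, other filters, thinning, a replicate block and leaving out each library. An offset per library from natural splines on GC content and gene length was added after the data were seen. The fits were tested on simulated counts. Standard errors were derived from the F statistic. TPM used the gene length that the authors deposited beside the counts. The members and lists were chosen with earlier results of these data known. Named genes were all members and, of each list, up to 4 genes with the smallest adjusted p under 0.05, and others were named after their values were seen. Motifs were also chosen then. Positions were taken from GENCODE release M21 (GRCm38, the assembly of mm10), in which 32593 of the 33000 identifiers were found. Library pairs differed beyond sampling noise, with a chi-square per degree of freedom of 2.23 or more. Intervals are for the difference between the groups, with variation between mice as the source of error, and duplicate reads could not be removed.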

Additional observations from a re-analysis of the deposited data

How the results depend on the processing

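Of 150 member fits under 15 alternatives, 6 changed the sign of the log2 fold change, all in members that were not called. These were Anpep, at 0.012 with limma-voom, 0.0053 without WT replicate 1 and 0.16 without WT replicate 2, Kcnj8, at -0.0775 after thinning to the smallest total and -0.0504 without GFAP-IL6 replicate 3, and Acta2, at -0.0466 without WT replicate 3. Thinning also left 1 member called, as Notch3 fell to 0.53 (edgeR adjusted p 0.0761), and fewer counts are available there by construction. Rgs5 and Notch3 were called in all other alternatives that kept the 6 libraries. Over the 6 fits that left out 1 library, the number of members called as higher was 0 to 2. The log2 fold change was 0.34 to 0.47 for Rgs5, 0.49 to 0.78 for Notch3, -0.24 to 0.16 for Anpep, -0.0504 to 0.23 for Kcnj8 and -0.0466 to 0.85 for Acta2. In these fits 186 to 692 of all genes were higher and 1 to 369 lower, against 407 and 32 with all libraries. Without the filter on low counts 801 were higher and 353 lower, and the lower genes numbered 106 with DESeq2, with or without its prior, 119 with the offset for GC content and gene length and 156 with the replicate block. The replicate block left 2 members called, but the numbers were not taken to pair the mice, since deviations of same-numbered libraries from their group means correlated at 0.123, 0.0192 and 0.0505. With 3 mice a group, the intervals of Acta2, Tagln, Anpep and Kcnj8 span log2 differences of nearly 1 or more, so changes of moderate size in these genes could not be detected.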

Other observations

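The genes with a mean of at least 5 CPM whose deviations from the group means were most like the mean deviation of Rgs5, Notch3, Anpep, Vtn, Kcnj8, Abcc9 and Pdgfrb were Lrrc45, Ptrf, Ehd1, Srsf4 and Tbc1d10a. Their Pearson correlations over the 6 libraries were 0.989 to 0.994, taken as the highest among 12082 genes. Ptrf encodes cavin, a coat protein of caveolae, which are abundant in vascular cells. With 6 libraries and so many genes, values of this size are a description of these libraries only.

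Of the relatives of the contractile genes, Tagln2 had a log2 fold change of 0.44 ± 0.16 (SE; adjusted p of 0.157 by edgeR) and Tagln3, the neuronal relative, one of -0.19 ± 0.08 (SE; adjusted p of 0.227 by edgeR). Actb and Actg1, the cytoplasmic actins, had log2 fold changes of -0.08 and -0.06, and 0 of the 5 tested relatives were called.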
